A study of Rattus norvegicus with 10 samples.

Results

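Metabotropic glutamate receptors are a small family of G protein-coupled receptors for glutamate, and 6 of their genes, Grm2, Grm3, Grm4, Grm5, Grm7 and Grm8, are described here. They were chosen by gene symbol from the 17168 genes of the deposited count table, and all 6 passed the filter on low counts that left 11682 genes for testing. The RNA came from left hippocampi of female TgF344-AD rats, of which 5 ate chow with ibudilast and 5 ordinary rodent chow. Ibudilast inhibits several cyclic nucleotide phosphodiesterases. TgF344-AD rats carry human transgenes for mutant amyloid precursor protein and presenilin, driven by the mouse prion promoter, and all 10 animals of both groups carried them, so no comparison with wild-type rats is made here. Ibudilast was given for 6 months from the age of 5 months, and every animal was dissected at 11 months under ketamine and xylazine with transcardial perfusion. The comparison asks which transcripts differ between treated and untreated transgenic females.

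The family falls into 3 groups. Group I receptors, among them mGlu5 (Grm5), couple through Gq to phospholipase C and the release of stored calcium, and sit mostly at the edge of the postsynaptic density, where Homer proteins tie them to calcium stores. Group II receptors, mGlu2 (Grm2) and mGlu3 (Grm3), and group III receptors, here mGlu4 (Grm4), mGlu7 (Grm7) and mGlu8 (Grm8), couple through Gi/o to lower cAMP and to restrain transmitter release. In the hippocampus mGlu2 is known from dentate granule cells and their mossy fibres, mGlu3 also from astrocytes, and mGlu7 from the presynaptic active zone. mGlu4 is best known from cerebellar granule cells.

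Libraries differed in transcripts that mark neighbouring tissue, which may bear on the values below. Total expected counts ran from 6960066 to 10121571 per library. Hippocampal principal cell markers (11 of 12 listed genes in the table) summed to 802 to 2022 CPM (counts scaled to the library total, corrected by TMM factors) in the untreated and to 361 to 1063.5 CPM in the ibudilast libraries. Of this list Tdo2 and Spink8 were at 0 in 8 and 5 of the 10 libraries, whereas the CA field markers Wfs1 (67.0 to 596 CPM), Fibcd1 (16.2 to 380 CPM) and Grik4 (30.4 to 138 CPM) and the dentate marker Prox1 were detected in all. Neocortex markers (11 of 12) summed to 376 to 525 CPM untreated and 659 to 1088.5 CPM with ibudilast, without overlap, and were highest in ibudilast 2 and ibudilast 4. In the test of the next paragraph 6 of these 11 were called higher and 5 were not called, against 20.0% of all genes called higher. In ibudilast 3 the cortical marker Etv1 alone gave 519 of 871 CPM. Cerebellum markers (11 of 11) came to 4334 CPM in ibudilast 3 and to between 47.0 and 149.97 CPM elsewhere. In those 9 libraries the defining granule cell gene Gabra6 reached at most 0.490 CPM. Other lists also separated the groups without overlap. Astrocyte markers (11 of 12) summed to 3728 to 5622 CPM untreated and 2229.5 to 3515 CPM with ibudilast, microglia markers to 349 to 539 and 167 to 332 CPM, and oligodendrocyte precursor markers to 628 to 754 and 419 to 507 CPM. Thalamus and striatum markers were higher with ibudilast, at 256 to 365 against 140 to 216 CPM. Meninges and choroid plexus markers reached 2567 CPM in untreated 1 and at most 511 CPM elsewhere, and summed neuron markers overlapped between the groups. In bulk tissue, fewer cells of a type and less RNA per cell cannot be told apart. Unless a value beside a result bears on it, the part of these tissues and cells in that result was not tested.

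Of the 6 receptor genes 4 rose with ibudilast, Grm4, Grm8, Grm2 and Grm3, and none fell (quasi-likelihood test of edgeR; p adjusted over all genes tested, threshold 0.05). Grm5 and Grm7 did not pass. Among all 11682 genes tested 20.0% were called higher and 18.5% lower. The 6 fold changes had a median of 0.60 on the log2 scale, against 0.01 over all genes tested. The groups did not overlap for Grm4 and Grm8, and 12.5% of all genes tested stood higher without overlap. Without ibudilast 3 all 6 passed as higher, in a fit where 22.0% of all genes were called higher. Levels are compared only within a gene, since transcript lengths were not used.

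**Figure D1:**
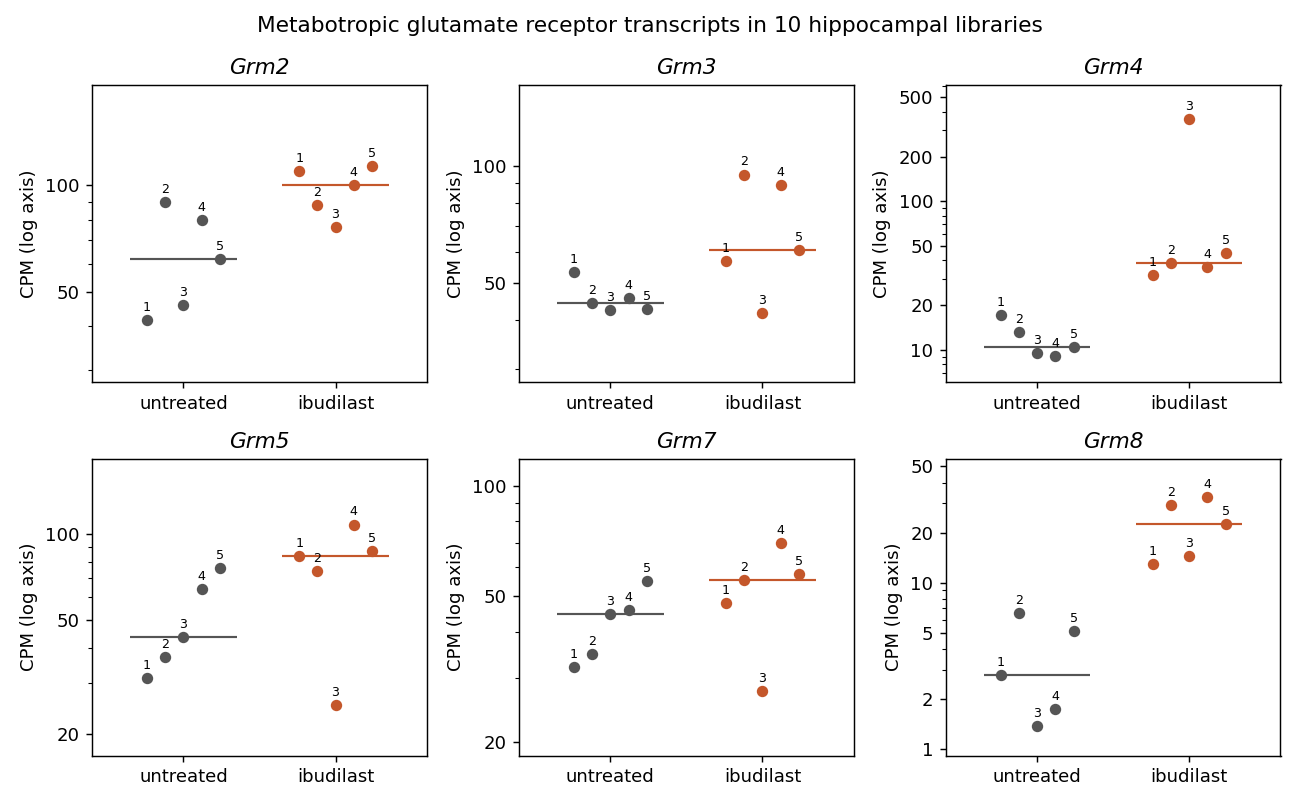
CPM of each receptor gene (vertical log axes) in the 5 untreated and 5 ibudilast libraries, with numbers giving the replicate and lines the group median. Grm8 and Grm4 separate the groups, Grm4 reaches 357 CPM in ibudilast 3, and Grm5 and Grm7 are at their lowest in that library.

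Grm8, which encodes a presynaptic receptor of group III, was higher in every ibudilast library than in any untreated one. In untreated 1 to 5 it stood at 2.80, 6.61, 1.37, 1.74 and 5.10 CPM, from 10 to 54 expected counts. In ibudilast 1 to 5 it stood at 13.0, 29.3, 14.5, 32.7 and 22.6 CPM. The ranges did not touch, and the highest values were in ibudilast 2 and 4, the libraries with most neocortex marker transcript. Group means were 3.52 ± 2.26 and 22.4 ± 8.71 CPM (SD, n = 5 each), and in edgeR the log2 fold change was 2.65 ± 0.42 (SE; adjusted p = 0.00142). It passed with any 1 library left out, with log2 fold changes of 2.45 to 3.02. With the neocortex marker score as a covariate it was 1.72 (edgeR adjusted p = 0.0312), a call that rested on ibudilast 3, whose score of -0.452 lay among the untreated ones. Without that library, when every ibudilast score exceeded every untreated one, the same covariate gave 1.09 (edgeR adjusted p = 0.866). The log2 fold change with the hippocampal marker score was 1.67 and did not pass (edgeR adjusted p = 0.0877).

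Grm4, the group III receptor gene best known from cerebellar granule cells, rose as well, and 1 library set the size of its change. The untreated libraries stood at 17.1, 13.2, 9.57, 9.13 and 10.5 CPM, and ibudilast 1 to 5 at 31.8, 38.2, 357, 35.9 and 45.0 CPM. All ibudilast libraries exceeded all untreated ones, and ibudilast 3, with the cerebellum markers, stood far above the other 4. The log2 fold change was 3.09 ± 0.73 (SE; edgeR adjusted p = 0.00756) and 1.68 ± 0.19 without ibudilast 3 (edgeR adjusted p = 0.000491). Without that library the ibudilast mean was 37.7 ± 5.54 CPM (SD, n = 4) against 11.9 ± 3.31 CPM untreated (SD, n = 5), 3.17-fold higher. In the 4 remaining ibudilast libraries cerebellum markers summed to 47.0 to 149.97 CPM, against 47.8 to 102 CPM untreated, and Gabra6 was at most 0.379 CPM. Ibudilast 5, with the highest Grm4 of these 4, also had the highest cerebellum sum of the 4 and 5.59 CPM of Fat2, another gene of that list, against at most 1.64 CPM in the untreated and the other 3 libraries. The cerebellum score was 2.57 in ibudilast 3 and -0.56 to 0.30 in the other libraries, so it mostly marked that library. With this covariate, chosen after seeing the data, the log2 fold change of Grm4 over all 10 libraries was 1.45 (edgeR adjusted p = 0.000246). With the neocortex score as a covariate its log2 fold change was 4.42 (edgeR adjusted p = 0.00279), and with the hippocampal score 2.89 (edgeR adjusted p = 0.185). Without ibudilast 3 the neocortex score gave 1.66 (edgeR adjusted p = 0.864).

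Grm7, which encodes the group III receptor of the active zone, did not pass. It stood at 32.1, 34.9, 44.7, 45.8 and 55.2 CPM in untreated 1 to 5 and at 47.9, 55.4, 27.6, 69.8 and 57.4 CPM in ibudilast 1 to 5. The groups overlapped, with ibudilast 3 below every untreated library and 3 ibudilast libraries above every untreated one. The log2 fold change was 0.28 ± 0.23 (SE; edgeR adjusted p = 0.346), and 0.45 ± 0.16 without ibudilast 3 (edgeR adjusted p = 0.0476). Grm8 relative to Grm7 within a library, which does not depend on scaling, had log2 count ratios of -5.03 to -2.40 untreated and -1.88 to -0.92 with ibudilast, so the groups did not overlap in this ratio either. The log2 ratio of Grm4 to Grm7 ran from -2.40 to -0.91 untreated and from -0.96 to -0.35 with ibudilast once ibudilast 3, at 3.69, was set aside, and those ranges overlapped.

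The group II genes rose by less. Grm2, which encodes a presynaptic autoreceptor, stood at 41.5, 89.6, 45.7, 79.6 and 61.8 CPM in untreated 1 to 5 and at 110.2, 88.0, 76.0, 100.2 and 113 CPM in ibudilast 1 to 5. Of the ibudilast libraries 3 lay above the highest untreated one, and untreated 1 and 3 were the lowest of all. These also had the least Prox1 of the untreated group, 11.2 and 13.5 CPM against 41.9 to 56.2 CPM in untreated 2, 4 and 5, whereas the ibudilast libraries held 8.91 to 27.5 CPM of Prox1. The log2 fold change was 0.62 ± 0.21 (SE; edgeR adjusted p = 0.0387). It ran from 0.49 to 0.77 with 1 library left out and did not pass without untreated 1, 3 or 5 or ibudilast 1, 2, 4 or 5. The call was also lost with the neocortex score as a covariate (0.49, edgeR adjusted p = 0.311) and with the hippocampal score (0.86, edgeR adjusted p = 0.13). Grm2 expected counts were not whole in any library, while those of the other 5 genes were whole in all 10, so some Grm2 reads were shared out between entries by RSEM.

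Grm3, the receptor gene of group II that astrocytes also express, was the steadiest of the 6 among untreated animals. It stood at 53.2, 44.4, 42.5, 45.8 and 42.8 CPM in untreated 1 to 5, and at 56.8, 94.9, 41.7, 89.3 and 60.6 CPM in ibudilast 1 to 5. In ibudilast 3 it was below every untreated library, while the other 4 ibudilast libraries were above all of them, with ibudilast 2 and 4 highest. The log2 fold change was 0.59 ± 0.20 (SE; edgeR adjusted p = 0.0394) and 0.73 ± 0.15 without ibudilast 3 (edgeR adjusted p = 0.0043). In fits that left out 1 library it passed without ibudilast 1 or ibudilast 3 only, and the value ran from 0.44 to 0.73. Of 11 tested astrocyte markers 5 fell and 1 rose (median on the log2 scale -0.28), where 18.5% of all genes were called lower and 20.0% higher. The 1 that rose, Slc4a4, reached 118 CPM in ibudilast 3 and at most 48.0 CPM elsewhere. The astrocyte marker sum of every ibudilast library was below that of every untreated one. Ibudilast 3, with the lowest Grm3 of the 10 libraries, had a sum of 3014.5 CPM. The lowest sums, 2433.7 and 2229.5 CPM, were in ibudilast 2 and 4, which had the highest Grm3. With the neocortex score as a covariate the sign of Grm3 turned, to -0.20 (edgeR adjusted p = 0.391).

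Grm5, which encodes the group I receptor mGlu5, varied widely within each group and did not pass. It stood at 31.4, 37.0, 43.6, 64.1 and 76.3 CPM in untreated 1 to 5, and at 83.5, 74.1, 25.1, 108 and 87.5 CPM in ibudilast 1 to 5. Ibudilast 3 was the lowest of the 10 libraries, and ibudilast 1, 4 and 5 were above every untreated one. Means were 50.5 ± 19.0 and 75.6 ± 30.8 CPM (SD, n = 5 each), and the log2 difference in edgeR was 0.58 ± 0.35 (SE; adjusted p = 0.204). Without ibudilast 3 it was 0.81 ± 0.24 (edgeR adjusted p = 0.0209), and with the neocortex score as a covariate -0.58 (edgeR adjusted p = 0.363). The negative sign rested on ibudilast 3, without which the same covariate gave 0.43 (edgeR adjusted p = 0.909).

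The titles carry an animal number, below 100 for 3 rats and above 200 for 2 rats of each group, and the labels do not say what it stands for. Within the lower numbers the mean log2 CPM difference, ibudilast minus untreated, was 2.47 for Grm8, 2.53 for Grm4, 0.70 for Grm2, 0.39 for Grm3, 0.54 for Grm5 and 0.18 for Grm7. Within the higher numbers it was 3.07, 2.01, 0.60, 0.73, 0.47 and 0.33 in the same order. All 6 genes were thus higher with ibudilast in each range. Untreated Grm5 differed between the ranges, at a mean log2 CPM of 5.22 for the lower and 6.13 for the higher numbers. With the range as a covariate Grm3 did not pass (log2 fold change 0.58, edgeR adjusted p = 0.0506), and the other calls kept their side of the threshold.

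**Figure D2:**
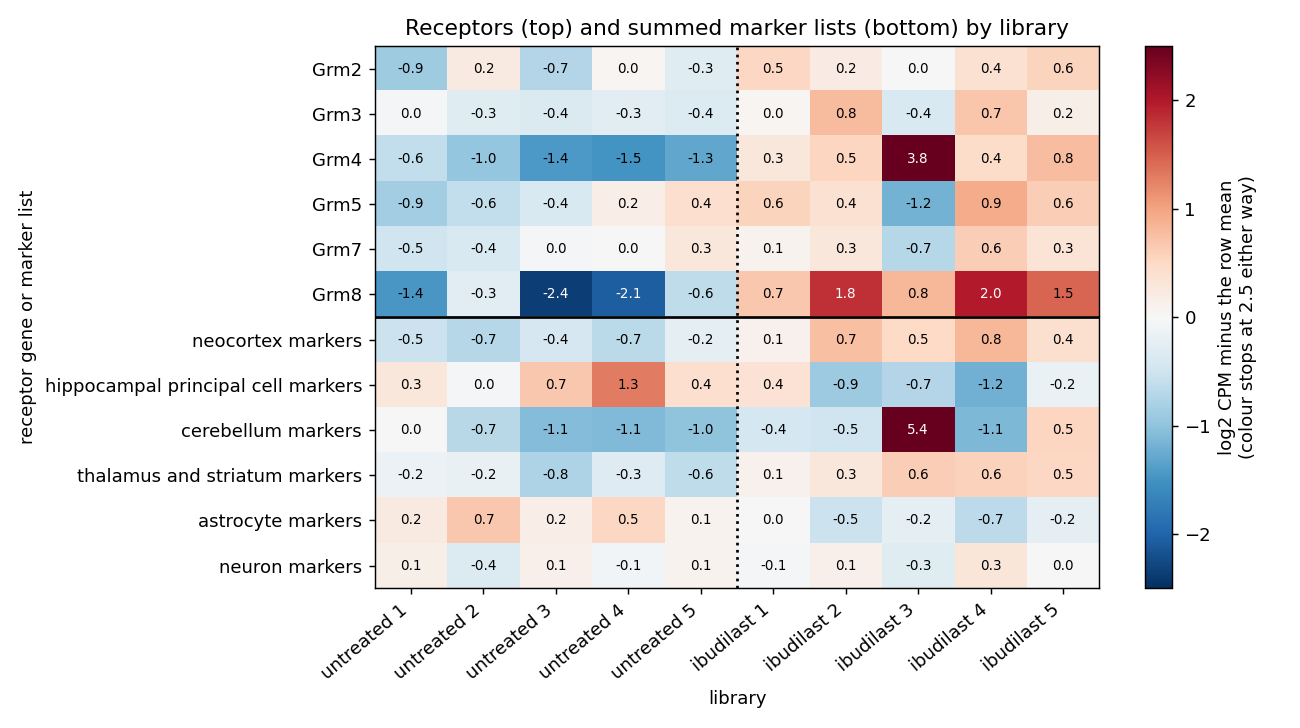
Log2 CPM of each receptor gene (top) and of the summed markers of 6 lists (bottom), minus the row mean, in the 10 libraries. Ibudilast 3 combines the highest cerebellum markers with the highest Grm4 and the lowest Grm5 and Grm7, and ibudilast 2 and 4 combine the highest neocortex markers with the highest Grm3 and Grm8.

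Genes whose profile over the 10 libraries lay closest to each receptor were found by the root mean square difference of log2 CPM, each gene centred on its own mean, among 11681 other genes. For Grm5 the nearest was Erc2, an active zone scaffold gene, at 0.13, with the kinase gene Pak3 at 0.20, against a spread of Grm5 itself of 0.67. Grm7 was the 35th nearest to Grm5, at 0.31, but Grm5 only the 775th nearest to Grm7, at the same distance against a spread of Grm7 itself of 0.39. For Grm7 the nearest were Cyp4x1, a cytochrome P450 gene, at 0.11 and Kpna3, a nuclear import gene, at 0.13. Grm3 lay nearest to Dnajc21 (0.13) and Il17ra (0.14), and Grm2 to Pik3cb (0.19) and Fam84a (0.20). The spreads of Grm3 and Grm2 themselves were 0.41 and 0.48. Distances were larger for the strongest movers, whose own spreads were larger too, 1.52 for Grm8 and 1.5 for Grm4. Their nearest were Fhod3 (0.41) and Ovol2 (0.44) for Grm8, and Ctxn3 (0.45) and Sytl1 (0.46) for Grm4. All of these distances rest on the same 10 libraries and share their tissue make-up.

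Genomic span moved with the fold changes. When tested genes were split by span into 10 deciles, the shortest had a median log2 fold change of -0.31 and the longest 0.38, and in the longest 38.2% of genes were called higher. Grm8, Grm7, Grm5 and Grm3 span 926, 882, 575 and 282 kb and lie in the longest decile, Grm4 spans 88.6 kb in the decile below it, and Grm2 spans 13.0 kb in the fourth. With the span trend removed Grm8 (2.06), Grm4 (2.83) and Grm2 (0.67) still passed edgeR (adjusted p = 0.00352, 0.0129 and 0.0311). Grm3 did not (log2 fold change 0.16, edgeR adjusted p = 0.548), Grm5 came to 0.09 (edgeR adjusted p = 0.82), and Grm7 turned to -0.28 (edgeR adjusted p = 0.145).

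**Figure D3:**
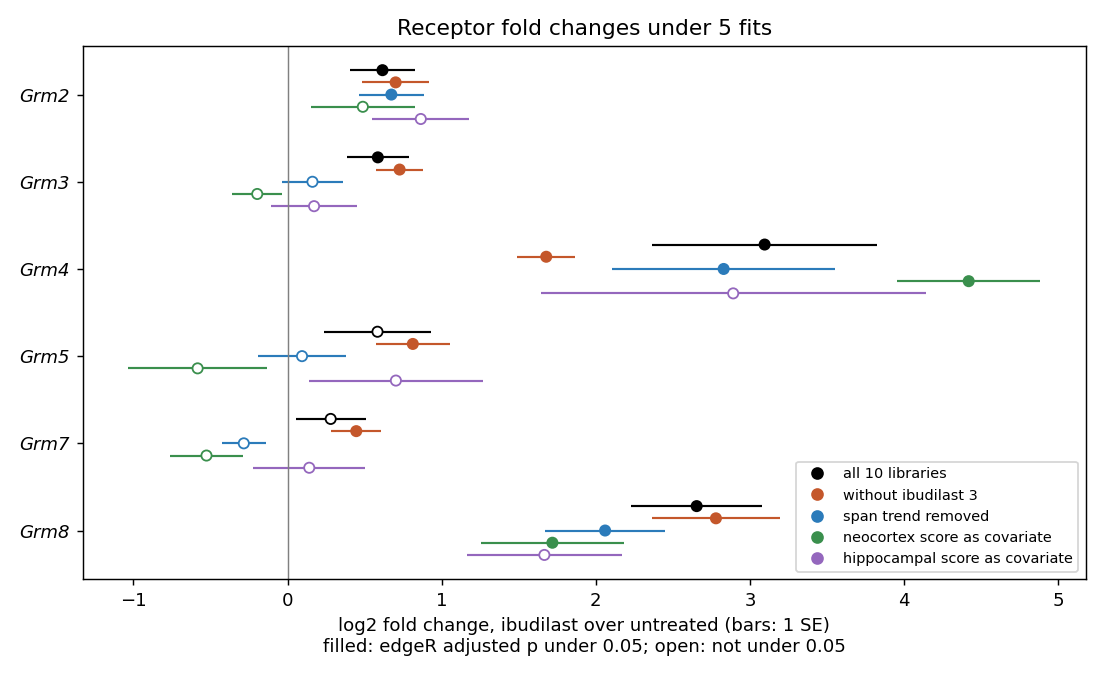
Log2 fold change of each receptor gene, ibudilast over untreated, with bars of 1 SE, under 5 fits; filled points passed an edgeR adjusted p of 0.05. Grm8 stays between 1.67 and 2.78, Grm4 falls to 1.68 without ibudilast 3, and Grm3, Grm5 and Grm7 cross 0 with the neocortex score as a covariate.

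The reference table held promoter sequences for 3 of the 6 genes. They are shown because Grm8 had the largest change that no single library set, and Grm5 and Grm7 are shown beside it as receptor genes that did not pass. Each line gives the 250 bases before the RefSeq transcript start in build GRCr8, and capitals mark GC boxes (GGGCGG on either strand).
Grm8, chr4:57687507-57687756, minus strand: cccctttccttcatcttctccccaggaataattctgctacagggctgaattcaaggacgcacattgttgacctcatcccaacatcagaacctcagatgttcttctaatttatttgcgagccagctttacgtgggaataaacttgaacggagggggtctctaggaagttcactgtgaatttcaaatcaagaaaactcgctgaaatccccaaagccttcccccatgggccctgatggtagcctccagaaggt
Grm7, chr4:145286476-145286725, plus strand: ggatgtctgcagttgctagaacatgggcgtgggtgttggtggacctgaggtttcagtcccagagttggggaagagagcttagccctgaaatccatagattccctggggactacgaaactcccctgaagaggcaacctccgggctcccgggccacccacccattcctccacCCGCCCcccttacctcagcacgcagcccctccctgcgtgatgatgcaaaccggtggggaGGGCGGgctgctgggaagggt
Grm5, chr1:150733503-150733752, plus strand: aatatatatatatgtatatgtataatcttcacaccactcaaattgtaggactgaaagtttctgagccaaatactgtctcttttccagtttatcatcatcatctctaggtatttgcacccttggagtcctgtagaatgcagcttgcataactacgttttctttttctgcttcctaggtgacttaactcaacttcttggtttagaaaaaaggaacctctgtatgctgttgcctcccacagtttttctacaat

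The Grm7 window held GC boxes starting 80 and 21 bases before the start, a motif found in 30.5% of 33469 promoter windows of the same length, and had a GC content of 62.0%. Grm8 and Grm5 held none, with a GC content of 47.2% and 36.4% against a median of 51.2% over all windows. The cAMP response element TGACGTCA, bound by CREB, and its core TGACG, which is part of it, were searched on both strands, as was the TATA box TATAAA. None of these 3 motifs was found in the 3 windows, where 1.59%, 18.2% and 12.9% of all windows held them. Which start these rats used was not measured.

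Genes that the receptors signal through were examined in 5 lists, with 58 of 60 listed genes tested. Of these 15 rose and 7 fell, 25.9% and 12.1%, against 20.0% and 18.5% of all genes, with a median log2 fold change of 0.23 against 0.01. The counts of the single lists below are to be read beside these shares of all genes. Without ibudilast 3, 25 rose and 8 fell, in a fit that called 22.0% of all genes higher and 18.6% lower. With the neocortex score as a covariate 6 rose and 1 fell, in a fit that called 11.6% and 6.61% of all genes. Only Rgs4, Plcb4, Itpr1, Kcnj9, Arrb1 and Adrbk2 kept their call in that fit. The other 16 of the 22 partner genes called lost theirs. That fit included ibudilast 3, whose neocortex score lay among the untreated ones. Without that library the same covariate called 0 partner genes and 0 of all genes. Plcb4, Itpr1 and Adrbk2 were highest in ibudilast 3. None of the 22 kept its call with the hippocampal score, in a fit that called 12 of all 11682 genes.

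In the group I coupling list 6 of 13 rose and none fell (median 0.48 on the log2 scale). Rgs4, which encodes a brake on Gq and Gi/o signalling, went from 64.7 ± 25.5 to 443 ± 219 CPM (SD, n = 5 each), with no ibudilast library below 205.5 and no untreated one above 86.5 CPM. The phospholipase gene Plcb4 rose by 2.65 ± 0.47 on the log2 scale (SE; edgeR adjusted p = 0.00218) and Itpr1, the calcium release channel gene, by 1.51 ± 0.38 (edgeR adjusted p = 0.0104). These 2 genes were highest in ibudilast 3, at 247 and 2193 CPM, and without it their log2 fold changes were 2.04 and 1.01. Gnaq, the Gq subunit gene, rose by 0.60 and the protein kinase C gene Prkcb by 1.04, and with the neocortex score these were 0.16 and 0.52 and did not pass (edgeR adjusted p = 0.624 and 0.15). Plcb1, the main phospholipase of hippocampal mGlu5 signalling, stood at a log2 fold change of 0.38 (edgeR adjusted p = 0.254), or 0.57 without ibudilast 3 (edgeR adjusted p = 0.0231). With the neocortex score Plcb1 came to -0.61 (edgeR adjusted p = 0.115), and with the span trend removed to -0.17 (edgeR adjusted p = 0.53).

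Among the mGlu5 scaffolds 2 of 12 rose and 1 fell, with a median of 0.03. Shank2, a postsynaptic scaffold gene, rose by 0.54 ± 0.10 (SE; edgeR adjusted p = 0.00303). It did not pass with the span trend removed (0.08, edgeR adjusted p = 0.581) or with the neocortex score (0.43, edgeR adjusted p = 0.0763). Homer1, whose product binds the mGlu5 tail, had a log2 fold change of 0.50 (edgeR adjusted p = 0.128), or 0.68 without ibudilast 3 (edgeR adjusted p = 0.00844). With the neocortex score Homer1 came to -0.53 (edgeR adjusted p = 0.072), and with the span trend removed to 0.22 (edgeR adjusted p = 0.492). Cyth2, an exchange factor gene linked to the receptor tail, rose by 0.41, but of the 10 fits with 1 library left out it passed only the one without ibudilast 3 (range 0.32 to 0.52). Prnp, whose prion protein product binds mGlu5 and amyloid oligomers, fell by 0.30, and did not pass without untreated 1, 3 or 5 or ibudilast 2 or 5 (-0.34 to -0.25). The sources used here do not say whether reads of the prion promoter transgenes were counted as Prnp. Ncdn, the gene of the mGlu5-binding protein norbin, had a log2 fold change of -0.47 (edgeR adjusted p = 0.0969), or -0.64 without ibudilast 1, where it passed.

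In the Gi/o coupling list, for the groups II and III, 3 of 14 rose and 4 fell, with a median of 0.22. Kcnj9, which encodes a potassium channel opened by G protein beta-gamma subunits, rose from 53.5 ± 11.4 to 131 ± 31.2 CPM (SD, n = 5 each). The alpha subunit gene Gnai2 fell by 0.41, and the gamma subunit gene Gng2 fell by 0.85, each in all 10 fits with 1 library left out but not with the neocortex score (edgeR adjusted p = 0.207 and 0.0633). Gnao1, the most abundant neuronal alpha subunit gene of this class, had a log2 fold change of 0.32 (edgeR adjusted p = 0.0728). Of the 10 fits with 1 library left out it passed only those without untreated 5 or ibudilast 3. It also passed with the animal number range (edgeR adjusted p = 0.0492) or the cerebellum score (edgeR adjusted p = 0.0152) as a covariate. With the neocortex score it came to -0.03 (edgeR adjusted p = 0.915), and with the span trend removed to -0.002 (edgeR adjusted p = 0.989). Other calls were lost in some of the fits with 1 library left out. Gnb4 rose by 0.73 and did not pass without untreated 1 or ibudilast 4 (0.59 to 0.84). Rgs7 rose by 0.30 and did not pass without untreated 1 or 3 or ibudilast 2 or 4 (0.24 to 0.34). Gnai3 fell by 0.31 and passed only without untreated 4 or ibudilast 1, 3 or 5 (-0.34 to -0.25), and Gng3 fell by 0.47 and passed only without untreated 4 or ibudilast 1 (-0.57 to -0.38).

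In the list of receptor interactors and desensitisation genes 5 of 10 moved, 4 higher and 1 lower, with a median of 0.24. The beta-arrestin gene Arrb1 rose from 24.7 ± 3.44 to 57.4 ± 9.11 CPM (SD, n = 5 each), without overlap, whereas Arrb2, its close relative, fell by 0.41 ± 0.09 (SE; edgeR adjusted p = 0.00604), also without overlap, and did not pass with the neocortex score (edgeR adjusted p = 0.151). The receptor kinase genes Adrbk2 and Adrbk1 rose by 1.13 and 0.36, each in all 10 fits with 1 library left out, but with the neocortex score Adrbk1 did not pass (edgeR adjusted p = 0.114). Grk5 rose by 0.68, and of the 10 fits with 1 library left out (range 0.57 to 0.84) passed only those without untreated 1 or 2 or ibudilast 1 or 3. Elfn1, whose product recruits group III receptors across the synapse, had a log2 fold change of 0.29 (edgeR adjusted p = 0.484), and Pick1, whose product binds the mGlu7 tail, of 0.07 (edgeR adjusted p = 0.512). In the list for mGluR-dependent depression none of 9 was called higher, where 20.0% of all genes tested were. In this list 1 gene, the pentraxin gene Nptx1, fell by 0.66 ± 0.15 (SE; edgeR adjusted p = 0.00718), with a list median of -0.07. With the neocortex score Nptx1 did not pass (edgeR adjusted p = 0.235).

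**Figure D4:**
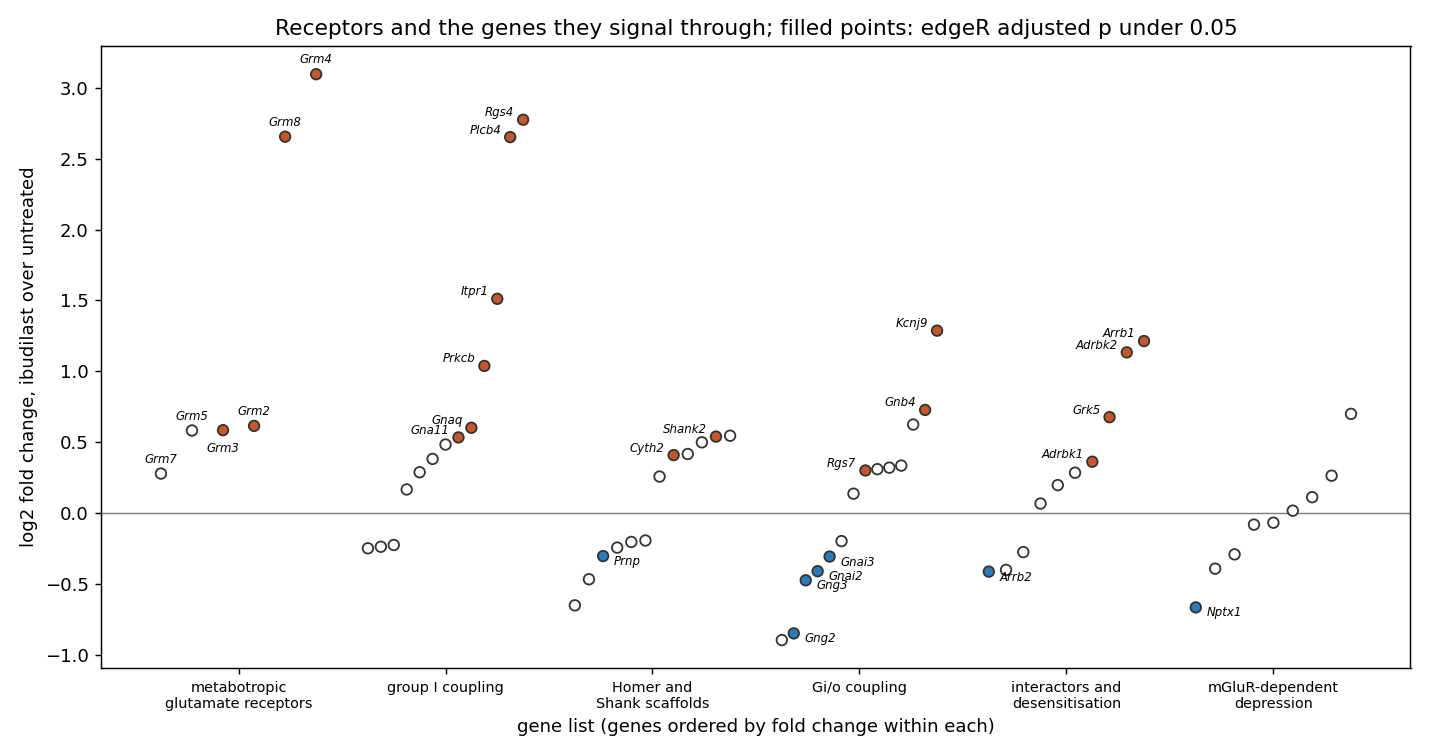
Log2 fold change, ibudilast over untreated, of the 6 receptor genes and of 58 genes in 5 lists of their signalling partners, ordered within each list. Filled points passed an edgeR adjusted p of 0.05. Grm4, Grm8, Rgs4 and Plcb4 lie above 2.5. None of the 9 genes of the depression list was called higher, where 20.0% of all genes tested were.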

How the data were processed

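Per the labels, strand-specific mRNA libraries were made from column-purified RNA. Expected counts per gene were estimated by the authors with RSEM 1.2.15, going by the submitters' processing notes, which also name Bowtie2 2.1.0, bcl2fastq 2.17 and build rn6. Annotation, strand setting and filters were not given in the sources used here. Reads of overlapping or antisense genes may thus be mixed. A second table deposited by the authors holds a signal, CPM scaled by TMM factors, and 99.9% of its positive values were matched within 0.1% from the rounded counts. Rounded counts entered the quasi-likelihood test of edgeR 4.0.16 (R 4.3.3) after filterByExpr and TMM scaling, with Benjamini-Hochberg adjustment over 11682 genes. Each library carries a separate animal number in its title. Standard errors were derived from the F statistic. A region score is the mean z-score of log2 CPM over those markers of a list that passed the filter. These were 11 neocortex, 9 hippocampal and 6 cerebellum markers. Span is from the RefSeq table of GRCr8, and its trend was removed by a loess offset per library. The code was tested on simulated counts.

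Named genes were all 6 receptors, up to 4 called genes per list and direction with a mean of at least 1 CPM, 10 preset partners of which those tested are given, and the 2 nearest profiles per receptor. An item on the lists is not reported here and is in no count of them. Members, lists, tests and alternatives were chosen with earlier results of these data known. Of the deposited symbols, 25 appear as dates and stayed under those names. Alternatives were other scaling and filters, counts without rounding, limma-voom and limma-trend (limma 3.58.1), DESeq2 1.42.0, a replicate block, the animal number, left-out libraries, region scores and span.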

Additional observations from a re-analysis of the deposited data

Results flagged for a closer look

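In 8 of 66 sets of 5 values (33 receptor and partner genes in 2 groups), 1 library stood apart, with a gap to its neighbour above 0.71 of the set's range; chance gives about 1 in 20 such sets. Grm4 reached 357 CPM in ibudilast 3, the library with the cerebellum markers, and in the same library Itpr1 reached 2193 CPM and Adrbk2 50.1 CPM. In ibudilast 1 Grk5 was low at 10.3 CPM and Arrb2 high at 76.6 CPM, which is nearer to the untreated range in each case. Among untreated libraries Nptx1 was low in untreated 2 (832 CPM), Elfn1 high in untreated 5 (71.9 CPM) and Ncdn high in untreated 4 (3709 CPM). Of these genes Grm4 is the only receptor.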

How the results depend on the processing

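With 1 library left out the number of receptor genes called ran from 2 to 6, of 58 partner genes from 16 to 33, and of all genes from 3458 to 4751. The receptor count was 2 without untreated 1, 3 or 5 or ibudilast 2, 4 or 5, where Grm4 and Grm8 were the ones called. The neocortex score as a covariate gave 2 receptors, 7 partners and 2132 genes, with the signs of Grm3 (-0.20), Grm5 (-0.58) and Grm7 (-0.53) reversed. The hippocampal score gave 0, 0 and 12, with 3, 12 and 2904 at an unadjusted p under 0.05. Removing the span trend reversed Grm7 (-0.28). Added after seeing the data, the cerebellum score gave 6 receptors and 34 partners. Also added, leaving out ibudilast 3 together with the neocortex score gave 0, 0 and 0. At an unadjusted p under 0.05 it gave 2, 3 and 595. Grm3 came to -0.11, Grm7 to -0.13 and Grm5 to 0.43. In that fit every ibudilast library had a higher score than every untreated one, so score and treatment can hardly be told apart. The cause of the other changes was not tested.

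Replicate numbers recur in the titles of both groups, but same-numbered libraries did not deviate together (correlations of -0.127 to 0.0226 across genes). The replicate block gave 3 receptors, 18 partners and 3535 genes, and Grm3 did not pass (0.53, edgeR adjusted p = 0.0674). Grm3 was also lost with limma-voom (adjusted p = 0.0648) and limma-trend (adjusted p = 0.0608), and Grm2 with upper quartile factors (adjusted p = 0.0548). DESeq2 gave Grm4 no adjusted p and called 3 of the other 5 receptors. Grm8 counts in untreated libraries were low, from 10 to 54. All 6 receptors kept a positive sign under every alternative not named above.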
